A study of Mus musculus with 2 samples.

Results

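The cytosolic ribosome carries a fixed set of proteins, and the genes for them were followed here across immune cells of the inflamed mouse stomach. A gene was taken as a member when its symbol was Rpl or Rps with digits and at most one letter a, l or x, and Rplp0, Rplp1, Rplp2 and Rpsa were added. This rule found 80 of the 31053 genes in the tables, 31 of the small subunit and 49 of the large subunit. Members with another kind of symbol were not taken, among them Rps3a1 (714205 UMIs) and Fau (1072436 UMIs), which also encode ribosomal proteins. A UMI is a molecular tag that marks 1 captured RNA molecule. Of the 80 members, 77 had at least 1000 UMIs over all cells and 3 had fewer than 100.

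The cells came from TxA23 mice, which carry a transgenic T cell receptor against the gastric proton pump and develop autoimmune gastritis. All mice received a subcutaneous osmotic pump at 3 months of age and were examined after 4 weeks. The IL-27 group (3 females) had pumps with 800 ng of recombinant IL-27, a covalently linked p28-EBI3 protein, in 200 uL. The PBS group (1 male and 1 female) had pumps with PBS. Live CD45+ cells flushed from the gastric mucosa were sequenced with 10x 5′ chemistry and are given as 1 library per group. Cells carry a barcode suffix, here called a well, of which IL-27 has 3 and PBS 2, and no label ties a well to a mouse. With 1 library per group, treatment and library cannot be told apart.

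Ribosomal proteins are made in nearly equal amounts, assembled with ribosomal RNA in the nucleolus, and exported as the small and the large subunit. The small subunit reads the messenger RNA, the large subunit joins amino acids, and the stalk (Rplp0, Rplp1, Rplp2) recruits elongation factors. Their messenger RNAs start with a run of pyrimidines, the TOP motif, through which mTOR signalling and Larp1 control their translation. Lymphocytes hold many of these RNAs per cell while at rest, and they raise protein synthesis after activation.

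Starts of members on which the results below turn are shown, since a pyrimidine run at the start is the feature the family is known for. Each is RefSeq sequence of GRCm38.p6, on the gene's own strand, from 30 bases before to 20 bases from the annotated start on. Capitals mark the longest run of at least 8 C or T that touches the 20 bases on either side of the start.
Rps27 (chr3:90213629-90213678, minus strand): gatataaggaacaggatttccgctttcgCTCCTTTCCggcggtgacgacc
Rps18 (chr17:33955646-33955695, minus strand): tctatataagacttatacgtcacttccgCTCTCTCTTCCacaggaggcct
Rps6 (chr4:86857348-86857397, minus strand): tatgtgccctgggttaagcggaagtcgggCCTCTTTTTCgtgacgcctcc
Rpl38 (chr11:114668550-114668599, plus strand): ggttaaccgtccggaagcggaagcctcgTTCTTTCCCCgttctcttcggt
Rps27l (chr9:66946056-66946105, plus strand): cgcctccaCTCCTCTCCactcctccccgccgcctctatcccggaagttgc
Rpl12 (chr2:32961682-32961731, plus strand): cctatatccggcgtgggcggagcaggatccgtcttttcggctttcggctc
Rplp0 (chr5:115559437-115559486, plus strand): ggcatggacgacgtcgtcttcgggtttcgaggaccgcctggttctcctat
Rpsa (chr9:120127736-120127785, plus strand): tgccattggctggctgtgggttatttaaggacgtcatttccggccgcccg

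In Rps27, Rps18, Rps6 and Rpl38 the run lay across the annotated start or within 2 bases of it. The run of Rps27l, the paralog of Rps27, lay upstream, and the windows of Rpl12, Rplp0 and Rpsa had no run of that length. Of the 80 members, 60 matched the RefSeq promoter table. A run was found in 32 of the 60 (53.3%), against 23.7% of the 27025 genes of the table. The letters CCGGAAG, found on either strand of the 300 bases around the start, stood in 25 members (41.7%) and in 9.93% of all genes. The letters AANATGGC, also searched on both strands, stood in 11 members (18.3%) and in 6.96% of all genes, and TATAAA on the gene's strand in 5 members (8.33%) and in 9.77%. A gene with several annotated starts counted if any of them matched.

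After filters, 20579 of 20897 IL-27 barcodes and 11793 of 12276 PBS barcodes remained, with median depths of 3079 and 2958 UMIs. Subsets were gated on raw UMIs of marker genes that are no members, and the 17 subsets with at least 50 cells held 16815 cells, 51.9% of those kept. Marker genes not used in the gate were all higher than in the other described subsets pooled for 15 of the 17. Only 2 of 4 were in B1-type B cells and 2 of 3 in plasmacytoid dendritic cells. For the CD4 and CD8 T cell gates these markers (Cd5 and Trac, with Cd28 for CD4) are shared by T cells. They thus do not check naive-type against activated-type or effector-type cells. The gate meant for gamma-delta T cells also held Trbc2 (1162 CPM, UMIs per 1000000 UMIs of the subset) and Trac (238 CPM), the alpha-beta receptor genes, beside Tcrg-C1 (138 CPM), so these cells are called Trdc+ T cells. PBS well 2 stood apart from the other 4 wells in several T cell subsets and was the well with Y-linked UMIs (3138, against 0 in every other well). The cells of the PBS male thus lay in PBS well 2, where sex and other features of the well cannot be told apart. Its values are given separately wherever they touch a result. Between the libraries, 117 barcodes with their suffix and 355 without it were the same.

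The 80 members gave 33955758 UMIs, 28.2% of the UMIs of kept IL-27 cells and 26.7% of those of kept PBS cells. By well the share was 28.9%, 27.9% and 27.6% in IL-27 and 28.6% and 24.6% in PBS, so only PBS well 2 lay below the others by more than they differed among themselves. The 5 members with the most UMIs held 15.7% of the total. They were Rps24 (9888 CPM), Rps27 (9742), Rps29 (8743) and Rps20 (7408) of the small subunit and Rpl13 (7253) of the large subunit. These are counts of captured 5′ ends, which do not scale with transcript length. Each of these 5 was seen in over 98.6% of kept cells, and 64 members in over 90%. At the other end, Rps27l had 166 CPM, Rpl39l and Rpl3l had 64 and 25 UMIs in all, and Rpl10l had 0, for which counting allows up to 3. The annotation lists processed copies (-ps entries) for 59 members, 24 for the member with the most, so a member's count depends on how the authors' counting treated reads that match such copies.

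Ribosomal protein genes took a very different share of the RNA in different leukocytes. The share, summed member UMIs over all UMIs of a subset, was taken in each well and averaged over wells with equal weight. This mean was near or above 30% in naive-type T cells, B1-type B cells and effector-type CD8 T cells. The share was lowest in neutrophils, below NK cells and the other myeloid cells. Naive-type CD8 T cells, gated on naive markers such as Ccr7 and on no effector genes, had 32.9% ± 1.44 (SD, n = 3 wells). B1-type B cells had 31.8% ± 1.47 (n = 5) and naive-type CD4 T cells 31.4% ± 0.903 (n = 4). Effector-type CD8 T cells had 30.3% ± 10.3 (n = 4), with the widest spread. Without PBS well 2 they had 35.2% ± 3.34 (n = 3), above the mean of naive-type CD8 T cells. With all wells pooled their share was lower, at 18.7% in cells at or below their median UMIs and 27.6% in those above it. Cycling T cells (28.6% ± 1.02, n = 4) and Trdc+ T cells (28.5% ± 2.47, n = 5) came next. Among the B cells of the other 2 large gates, Cr2+ Fcer2a- B cells had 27.3% ± 0.379 and follicular-type B cells 26.6% ± 0.423 (n = 5 each). Foxp3+ regulatory T cells (23.4% ± 2.19) and activated-type CD4 T cells (22.8% ± 2.78, n = 5 each) were lower. NK cells, the innate cytotoxic lymphocytes, had 17.3% ± 0.900 (n = 5). Plasmacytoid dendritic cells (18.5% and 19.1%) and macrophages or monocytes (17.6% and 17.8%) had 2 wells each, and mast cells 18.4% in 1 well. No well held 20 cells of the rest, for which all wells were pooled: germinal centre-type B cells 23.9%, conventional dendritic cells 21.0% and neutrophils 4.51%.

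**Figure D1:**
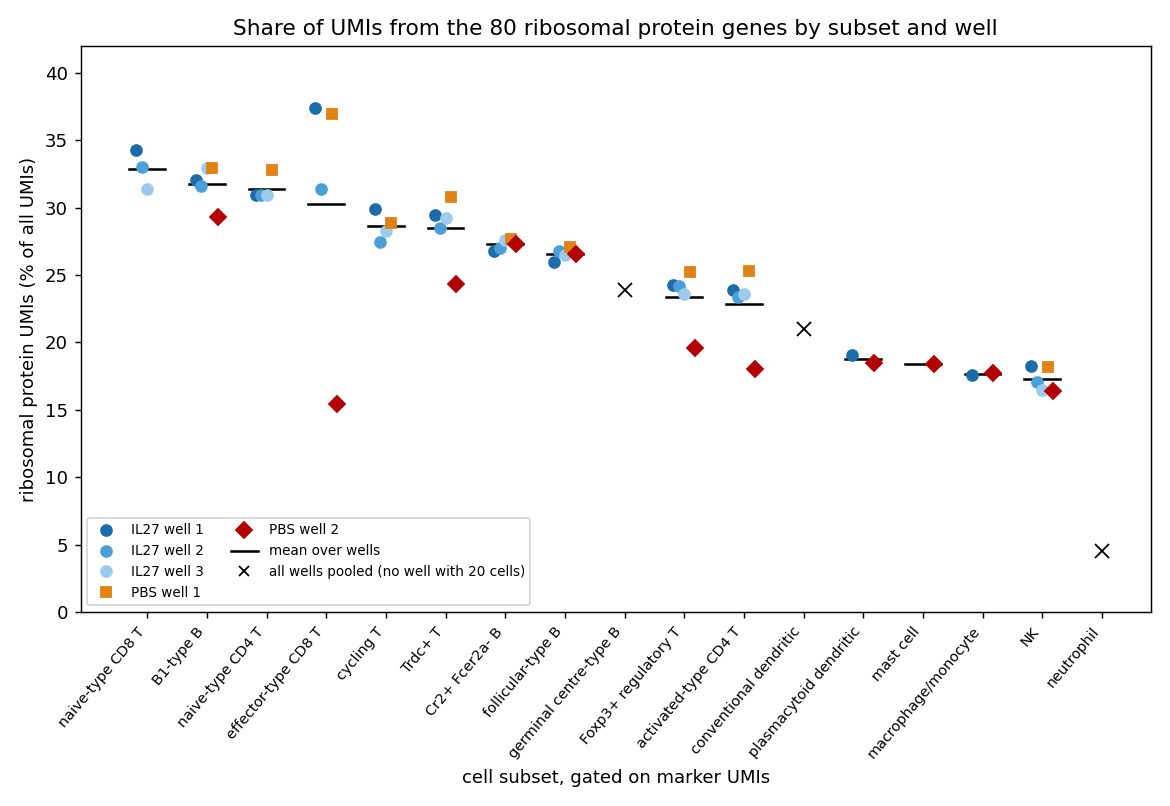
Share of all UMIs (percent, vertical axis) that came from the 80 ribosomal protein genes in each gated subset (horizontal axis, ordered by the mean). Each symbol is 1 well with at least 20 cells, bars are means over wells, and crosses are pooled values of subsets without such a well. Naive-type T cells and B1-type B cells lie near 32%, follicular-type B cells near 27% in every well, NK cells near 17%, and the red diamonds of PBS well 2 lie below the other wells in T cell subsets.

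Differences were also taken within wells. Naive-type CD4 T cells exceeded activated-type CD4 T cells by 7.38 ± 0.207 percentage points (4 of 4 wells) and follicular-type B cells by 4.83 ± 0.668 (4 of 4). Trdc+ T cells exceeded activated-type CD4 T cells by 5.64 ± 0.404 points in 5 of 5 wells, PBS well 2 included. B1-type B cells exceeded follicular-type B cells by 5.19 points (2.76 to 6.48, 5 of 5 wells) and cycling T cells exceeded activated-type CD4 T cells by 4.58 ± 1.06 (4 of 4). Some neighbours in the order did not differ beyond their spread: regulatory T cells exceeded activated-type CD4 T cells by 0.551 ± 0.669 points (4 of 5 wells), and effector-type exceeded naive-type CD8 T cells by 0.751 ± 3.35 (1 of 2 wells). In most subsets the share was higher in the deeper cells. Naive-type CD4 T cells at or below their median UMIs had 26.8% and those above it 33.5%, and the values were 19.6% and 24.7% in activated-type CD4 T cells and 13.8% and 18.5% in NK cells. In macrophages or monocytes they were 17.4% and 18.0%, and in plasmacytoid dendritic cells the deeper cells were lower (18.9% and 18.1%). The median depth of naive-type (3561 UMIs) and activated-type CD4 T cells (3492) was nearly the same. With every cell thinned to 1000 UMIs their difference was 7.08 points.

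PBS well 2 departed from the other wells by cell type. In effector-type CD8 T cells its share was 15.4% (190 cells), against 37.4%, 31.4% and 36.9% in the other 3 wells with 20 cells. In activated-type CD4 T cells it was 18.1% against 23.4% to 25.3%, in regulatory T cells 19.6% against 23.6% to 25.2%, and in Trdc+ T cells 24.3% against 28.5% to 30.8%. In follicular-type B cells it was 26.6% and lay inside the range of the others (26.0% to 27.1%), and in Cr2+ Fcer2a- B cells 27.3% (26.8% to 27.7%). The 7 B cell genes outside the gates summed to 4194 CPM in its activated-type CD4 T cells (6 detected), against 547 to 685 in the other wells. Of this, 3697 CPM came from Cd74, the invariant chain of MHC class II, which other antigen-presenting cells also express. The B cell receptor gene Cd79b was lowest in this well (2.60 CPM, against 6.93 to 11.2) and Pax5 was at 0. In its effector-type CD8 T cells the 7 genes summed to 855 CPM (5 detected) against 499 to 621, with Cd74 at 471 against 53.5 to 234. The 15 epithelial genes summed to 107 CPM in its activated-type CD4 T cells (7 detected) against 8.24 to 35.1, to 362 in its regulatory T cells (9 detected) against 34.7 to 85.5, and to 141 in its effector-type CD8 T cells (10 detected) against 8.04 to 71.4. The part of these genes in the shares was not tested.

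Activated-type CD4 T cells (Icos, Pdcd1, Tnfrsf4, Lag3, Tigit or Maf, and no naive markers such as Ccr7) had less RNA of nearly every ribosomal protein than naive-type CD4 T cells of the same well. Of the 77 members tested, 74 fell and 0 rose at an adjusted p under 0.05 by edgeR's quasi-likelihood test with the well as a block, against 9.11% and 7.84% of the 4960 genes tested. Without adjustment 75 members had a p under 0.05. By DESeq2 71 were lower and 0 higher. The median log2 fold change was -0.51 for the members and -0.00128 for all genes. All p-values between subsets rest on the spread between wells, which may be technical. The test draws the spread of each gene toward that of all genes. A very small p-value from few wells thus does not measure the spread of that gene alone.

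Both subunits took part: 28 of 31 small subunit and 46 of 46 large subunit members tested fell. Rpl12, which sits at the base of the stalk, had the lowest value. It stood at 2284, 2380, 2273 and 2287 CPM in the naive-type cells of IL-27 wells 1 to 3 and PBS well 1, and at 1415, 1471, 1339 and 1295 in the activated-type cells. The groups did not overlap, and the fold change was -0.94 ± 0.06 (log2, SE, 4 of 4 wells lower, edgeR adjusted p = 1.7e-21). Rps19, a small subunit protein known from Diamond-Blackfan anaemia, stood at 5615 to 6320 in naive-type and 3505 to 3703 in activated-type cells of these wells (-0.91 ± 0.04, adjusted p = 4.6e-25). Rps24 (-0.86 ± 0.04) and Rps20 (-0.85 ± 0.04) followed. Rplp0, the scaffold of the stalk, fell by 0.55 and Rpsa, also known as the laminin receptor, by 0.49 on the log2 scale.

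Among the 3 members that did not pass were Rps2 (-0.31, adjusted p = 0.076) and Rps27l (0.29, 0.24). Rps27l had the only positive value, and was higher in 4 of 4 wells before scaling (log2 ratios of 0.20 to 1.17). With cells of 2000 to 5000 UMIs in both arms, a window chosen after the depths were seen, the members called lower were again 74. Library-size scaling put the median of all genes at 0.22 and called 65 members lower and 1 higher. In 71 members the direction without scaling was the same in all 4 wells.

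**Figure D2:**
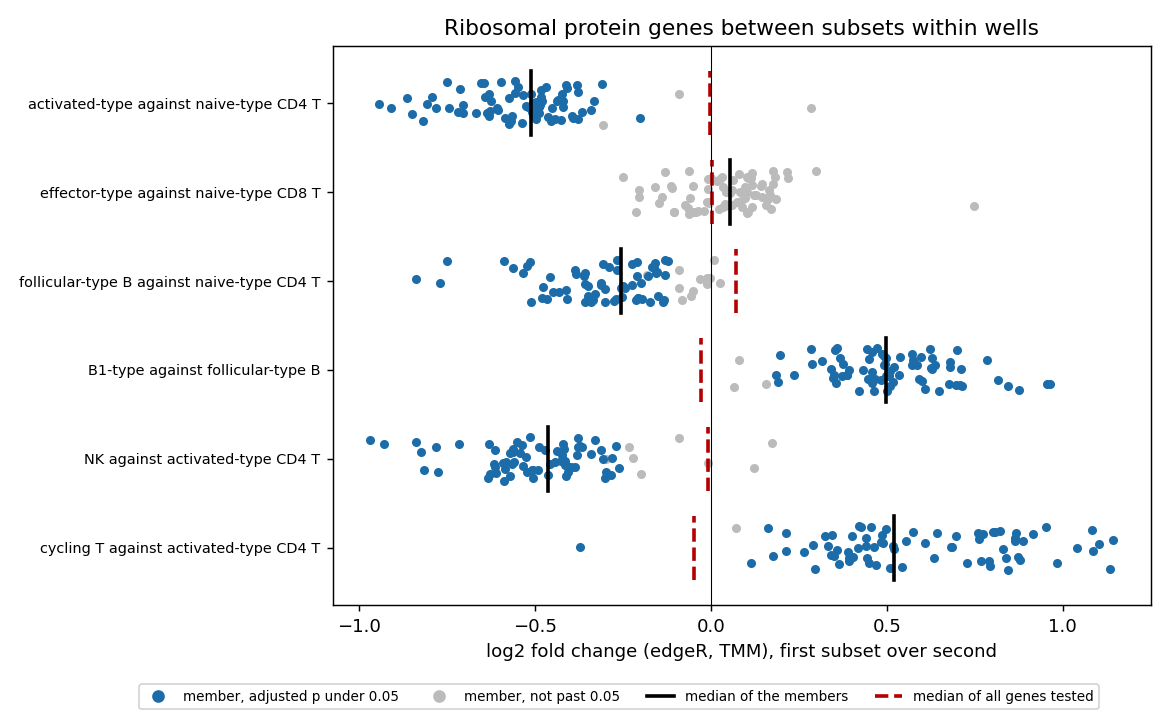
Log2 fold change (horizontal axis, edgeR with TMM scaling) of each of the 77 ribosomal protein genes tested, for 6 contrasts between subsets of the same wells (rows). Each point is 1 gene, blue where the adjusted p is under 0.05, and bars mark the median of the members (black) and of all genes tested (red, dashed). The members lie left of the other genes in activated-type CD4 T and NK cells, right of them in B1-type B and cycling T cells, and around them in effector-type CD8 T cells.

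Effector-type CD8 T cells (Ccl5, Gzmk, Gzmb, Nkg7 or Pdcd1) gave no such difference from naive-type CD8 T cells. Only IL-27 wells 1 and 2 held 20 cells of each, 104 and 83 cells in all. Of the 77 members, 0 rose and 0 fell by edgeR's quasi-likelihood test, against 1.21% and 1.10% of 2644 genes, and DESeq2 also called 0. At an unadjusted p under 0.05 there was 1 member. The median log2 fold change was 0.06 for members and 0.00415 for all genes, and 50 of 77 were above 0. Rps27l again had the highest value (0.75 ± 0.27, adjusted p = 0.14), with log2 ratios of 0.18 and 1.65 in the 2 wells. PBS well 2, whose effector-type cells had a share of 15.4%, held 4 naive-type CD8 T cells and was not in this test.

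Follicular-type B cells, the resting recirculating B cells, had lower levels of most members than naive-type CD4 T cells, but the make-up differed. By edgeR's quasi-likelihood test 64 of 77 fell and 0 rose, against 15.4% and 17.6% of 9577 genes, and 66 had an unadjusted p under 0.05. The median log2 fold change was -0.25 for members and 0.07 for all genes. All 3 stalk genes were among those that fell. Rplp0 had 8502, 8866, 7943 and 8571 CPM in naive-type CD4 T cells and 4682, 5310, 4640 and 4747 in follicular-type B cells of IL-27 wells 1 to 3 and PBS well 1. The groups were far apart in each well (-0.84 ± 0.04, edgeR adjusted p = 1.2e-98, which leans on the spread shared over all genes tested). Rpl12 (-0.77 ± 0.05), Rplp1 (-0.75 ± 0.04) and Rps18 (-0.59 ± 0.05) were next.

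Rps27, among the most abundant members, stood at 9954 to 12179 in naive-type CD4 T cells and at 10477 to 12034 in follicular-type B cells of the same wells. The ranges overlapped, and the log2 fold change was 0.03 ± 0.04 (edgeR adjusted p = 0.64). Rps20 (-0.01) and Rps12 (0.01) did not pass either. The count of lower members depended on the method more than in the CD4 contrast: DESeq2 called 37, and cells thinned to 1000 UMIs gave 20 lower and 5 higher. In the 2000 to 5000 UMI window 44 were lower and 3 higher. The planned contrast of germinal centre-type with follicular-type B cells could not be run, since no well held 20 germinal centre-type cells.

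B1-type B cells, innate-like B cells of the body cavities and mucosa, had more ribosomal protein RNA than follicular-type B cells in all 5 wells. This contrast, like that of NK and of cycling T cells, was added after the cell counts had been seen. Of 77 members, 74 rose and 0 fell by edgeR's quasi-likelihood test, against 11.4% and 8.88% of 9578 genes, and 75 had an unadjusted p under 0.05. DESeq2 called 75 higher and 0 lower. The median log2 fold change was 0.50 for members and -0.03 for all genes. Rplp0 stood at 8670, 8726, 8487, 8501 and 6408 CPM in the B1-type cells of IL-27 wells 1 to 3 and PBS wells 1 and 2, against 4451 to 5310 in follicular-type cells. Every B1-type value was higher, with PBS well 2 the lowest (0.96 ± 0.07, edgeR adjusted p = 2.4e-11).

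Rps12, a small subunit protein of the beak, rose from 2147 to 2598 in follicular-type cells to 3029 to 4564 (0.95 ± 0.07). Rps2 (0.88 ± 0.09) and Rpl23a (0.84 ± 0.09) were next, both scarce in follicular-type cells at 195 and 281 CPM. Neither was called in the 2000 to 5000 UMI window. The 3 members that did not pass were Rps29 (0.07), Rps27 (0.08) and Rpl35a (0.16), of which Rps29 and Rps27 were lower in 5 of 5 wells before scaling. B1-type cells were also deeper, with a median of 5224.5 UMIs against 2842. In the 2000 to 5000 UMI window 17 members rose, and with the PBS wells alone 37. Library-size scaling put the median of all genes at -0.20 and called 66 higher and 1 lower. The part of depth in the other calls was not tested.

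NK cells had lower levels than activated-type CD4 T cells of the same wells for most members. Of 77, 69 fell and 0 rose by edgeR's quasi-likelihood test, against 12.8% and 12.9% of 5595 genes, and 72 had an unadjusted p under 0.05. DESeq2 called 54 lower and 0 higher. The median log2 fold change was -0.46 for members and -0.00747 for all genes. Rps19 stood at 1948, 1823, 1853, 1852 and 1762 CPM in NK cells of IL-27 wells 1 to 3 and PBS wells 1 and 2, and at 3703, 3664, 3505, 3654 and 2674 in activated-type CD4 T cells. No values overlapped, and the CD4 value of PBS well 2 was the lowest (-0.97 ± 0.09, edgeR adjusted p = 2.1e-08). Rplp0 (-0.93 ± 0.09), Rps26 (-0.84 ± 0.10) and Rpsa (-0.82 ± 0.08) followed.

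Rpl13a, known for silencing transcripts in interferon-treated myeloid cells, did not differ (-0.01 ± 0.09, adjusted p = 0.97), with 1091 to 1242 CPM in NK cells. With the PBS wells alone 2 members were called lower, and with the IL-27 wells alone 69, and the share of all genes called in these fits is not given here. In PBS well 2 the share of activated-type CD4 T cells exceeded that of NK cells by 1.63 points, against 7.10 in the well with the largest gap.

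Cycling T cells (Mki67 or Top2a) had more RNA of nearly every member than activated-type CD4 T cells, with a clear exception. By edgeR's quasi-likelihood test 75 of 77 rose and 1 fell, against 23.5% and 21.1% of 6748 genes, with a median log2 fold change of 0.52 for members and -0.05 for all genes. Rpl41, the smallest ribosomal protein, stood at 3478, 3235, 2875 and 3411 CPM in cycling T cells of IL-27 wells 1 to 3 and PBS well 1, and at 1799, 1697, 1701 and 1925 in activated-type CD4 T cells. The groups did not overlap (1.14 ± 0.06, edgeR adjusted p = 1.3e-12). Rps6, the substrate of S6 kinase (1.10 ± 0.06), and Rps12 (1.08 ± 0.05) also rose. Rps27l rose by 1.08 ± 0.10.

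Rps27 fell by 0.37 on the log2 scale (SE 0.05, edgeR adjusted p = 2.2e-06). It stood at 5067, 4326, 5164 and 5273 CPM in cycling T cells and at 7678, 6963, 7970 and 8232 in activated-type CD4 T cells. Every cycling value was lower than every activated-type value. Cycling T cells were much deeper (median 13678 UMIs against 3492), and the part of depth in the calls was not tested. Thinned to 1000 UMIs, 55 members rose and 1 fell. Library-size scaling, which put the median of all genes at -0.33, called 58 higher and 5 lower. For 3 members called higher, among them Rps24 (0.16) and Rps29 (0.12), the ratio before scaling was below 0 in all 4 wells.

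Other translation genes, in lists chosen with earlier results of these data known, were counted in the same fits. Of 20 genes that share the TOP motif or the ribosome (elongation factors, Eif3 subunits, Rack1, Npm1), 15 fell and 0 rose in activated-type against naive-type CD4 T cells, with a median of -0.43. Among them were Rps3a1 (-0.67) and the elongation factor Eef1a1 (-0.51). In NK cells 16 fell and 0 rose (median -0.40), in B1-type B cells 19 rose and 0 fell (0.39), and in cycling T cells 18 rose and 0 fell (0.51), with Npm1, a nucleolar chaperone, at 1.27. Library-size scaling gave 9 lower, 15 lower, 12 higher with 1 lower, and 12 higher with 3 lower in these 4 contrasts. Of all genes in the main fits, 9.11% fell and 7.84% rose in activated-type CD4 T cells, and 12.8% fell and 12.9% rose in NK cells. In B1-type B cells 11.4% of all genes rose and 8.88% fell, and in cycling T cells 23.5% and 21.1%.

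Ribosome assembly genes moved less uniformly. Of 35, 14 rose and 0 fell in B1-type B cells (median 0.50, beside 11.4% and 8.88% of all genes), among them Nhp2 (0.96) and Gnl3 (0.91). In cycling T cells 10 of 31 rose and 1 fell (median 0.08, beside 23.5% and 21.1% of all genes), or 5 and 5 with library-size scaling, where the median was -0.20. In activated-type CD4 T cells 2 of 26 fell and 0 rose (median -0.14, beside 9.11% of all genes), or 0 and 1 with library-size scaling, where the median was 0.08. The proteins of the mitochondrial ribosome, a separate particle of other genes, gave 1 rise and 2 falls among 70 in activated-type CD4 T cells (beside 7.84% and 9.11% of all genes). The median was 0.03, and with library-size scaling 8 rose and 0 fell (median 0.24). In cycling T cells 44 of 75 rose and 1 fell (median 0.45, beside 23.5% and 21.1% of all genes), or 20 and 3 with library-size scaling. Of the initiation and mTOR genes, 1 of 12 fell and 0 rose in activated-type CD4 T cells (median 0.04), and the gene that fell was Myc, a driver of ribosome synthesis (-1.08). In follicular-type B against naive-type CD4 T cells 5 of 18 fell and 1 rose (beside 15.4% and 17.6% of all genes), with Myc at -1.47. In B1-type B cells 7 of 18 rose and 0 fell (beside 11.4% and 8.88%), with Myc at 1.53.

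The make-up of the member UMIs was then taken apart from their total, as each member's share of all member UMIs in a subset. The highest share of a member over the 17 subsets was at least 1.5 times its lowest in 65 of 77 members, with a median of 1.90 times. For most members the highest or the lowest share stood in neutrophils (55 cells) or mast cells (106 cells). The part of counting error in these ratios was not tested. The 2 members with the smallest spread were Rpl34 (1.38% to 1.74%) and Rpl23 (1.46% to 1.94%). The small subunit together held 47.0% of member UMIs in NK cells, 49.3% in naive-type CD4 T cells and 49.9% in follicular-type B cells. The 5 members with the largest spread over subsets were Rps27l, Rps9, Rpl12, Rpl31 and Rpl10. With cells thinned to 1000 UMIs, Rps27l, Rpl12, Rps9 and Rpl10 led and Rpl4 was the fifth.

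Rpl31 stood highest in plasmacytoid dendritic cells. It held 1.02% of the member UMIs of these interferon-producing cells and 0.205% in germinal centre-type B cells, where it was lowest. Its level was 1857 CPM in IL-27 well 1 and 1830 in PBS well 2, the wells with 20 such cells, and 1872 over all. In the other subsets it ranged from 110 in neutrophils to 868 in cycling T cells. The higher level thus stood in both libraries.

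Neutrophils, with few UMIs per cell (median 1369, 55 cells), had the most unusual pool, and no well held 20 of them. Rps9 held 9.76% of their member UMIs, against 1.63% in cycling T cells, with 4095 CPM in the IL-27 and 4802 in the PBS library. That level was like that of other subsets (3145 in NK cells, 5562 in follicular-type B cells), while the total share of members was 4.51%. Rpl12 held 0.163% of the neutrophil pool (73.4 CPM) and 0.738% of that of naive-type CD4 T cells. Rpl10, an X-linked gene of the late-joining large subunit protein, held 0.434% in neutrophils (196 CPM) and 0.161% in naive-type CD4 T cells. Both neutrophil values rest on few UMIs, since 9 UMIs of Rpl3l there gave 110 CPM.

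**Figure D3:**
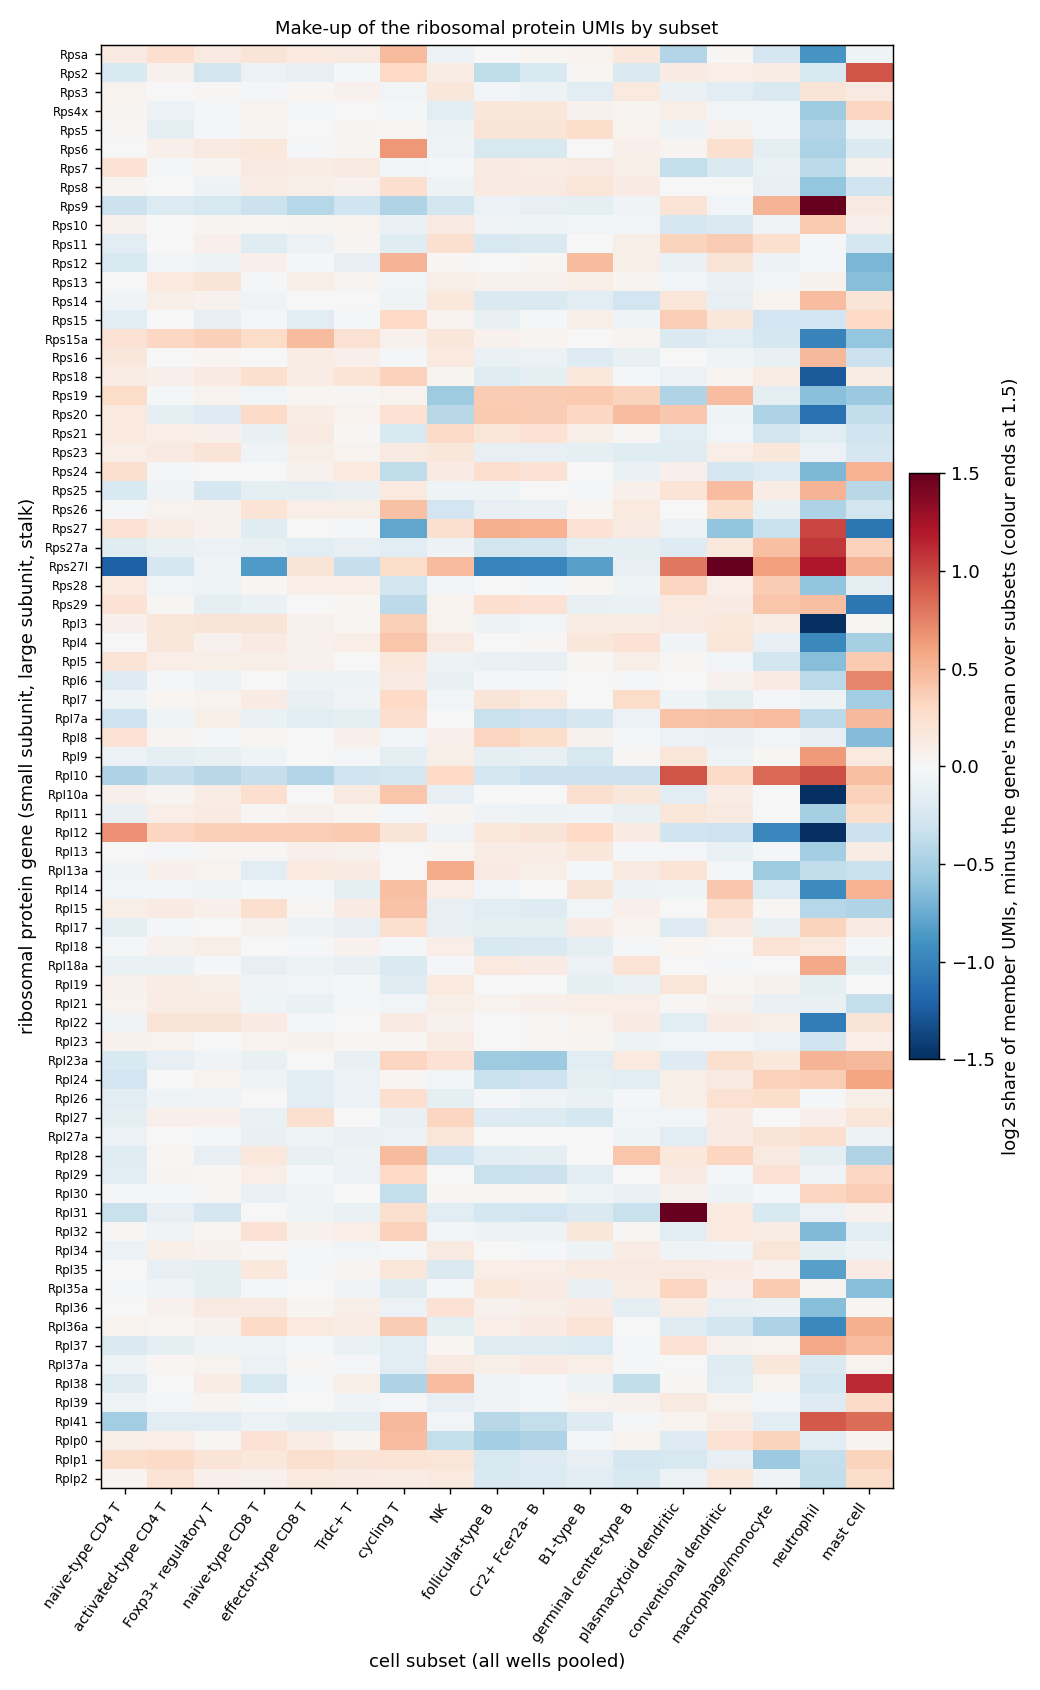
Each row is 1 of 76 ribosomal protein genes with at least 1000 UMIs and each column 1 subset with all wells pooled. Colour is the log2 share of the gene within all member UMIs minus its mean over subsets (red higher, blue lower, colour ends at 1.5). Rps27l is blue in naive-type T and B cells and red in dendritic cells and, on few UMIs, in neutrophils. Rpl31 is red in plasmacytoid dendritic cells (1.02% of the pool). The neutrophil and mast cell columns, of 55 and 106 cells, differ most.

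Rps27l, a p53-responsive paralog of Rps27, and its parent gene both differed in level between subsets. Rps27l held 0.0403% of member UMIs in naive-type CD4 T cells and 0.285% in conventional dendritic cells, 7.07 times as much. Over all wells it stood at 126 CPM in naive-type CD4 T and in follicular-type B cells, 182 in activated-type CD4 T cells, 222 in NK cells, 317 in cycling T cells and 599.5 in conventional dendritic cells. Rps27 stood at 10873 in naive-type CD4 T and 11568 in follicular-type B cells. It was at 4891 in cycling T cells, 4157 in conventional dendritic cells and 2552 in mast cells. In neutrophils Rps27 stood at 2693 CPM, although it held its highest share of member UMIs there (5.97%). Rps27l stood at 97.9 CPM in neutrophils, a value that rests on few UMIs, since 9 UMIs of Rpl3l there gave 110 CPM. Within follicular-type B cells Rps27l ranged from 119 CPM (PBS well 2) to 133 (IL-27 well 1), so the wells differed little.

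**Figure D4:**
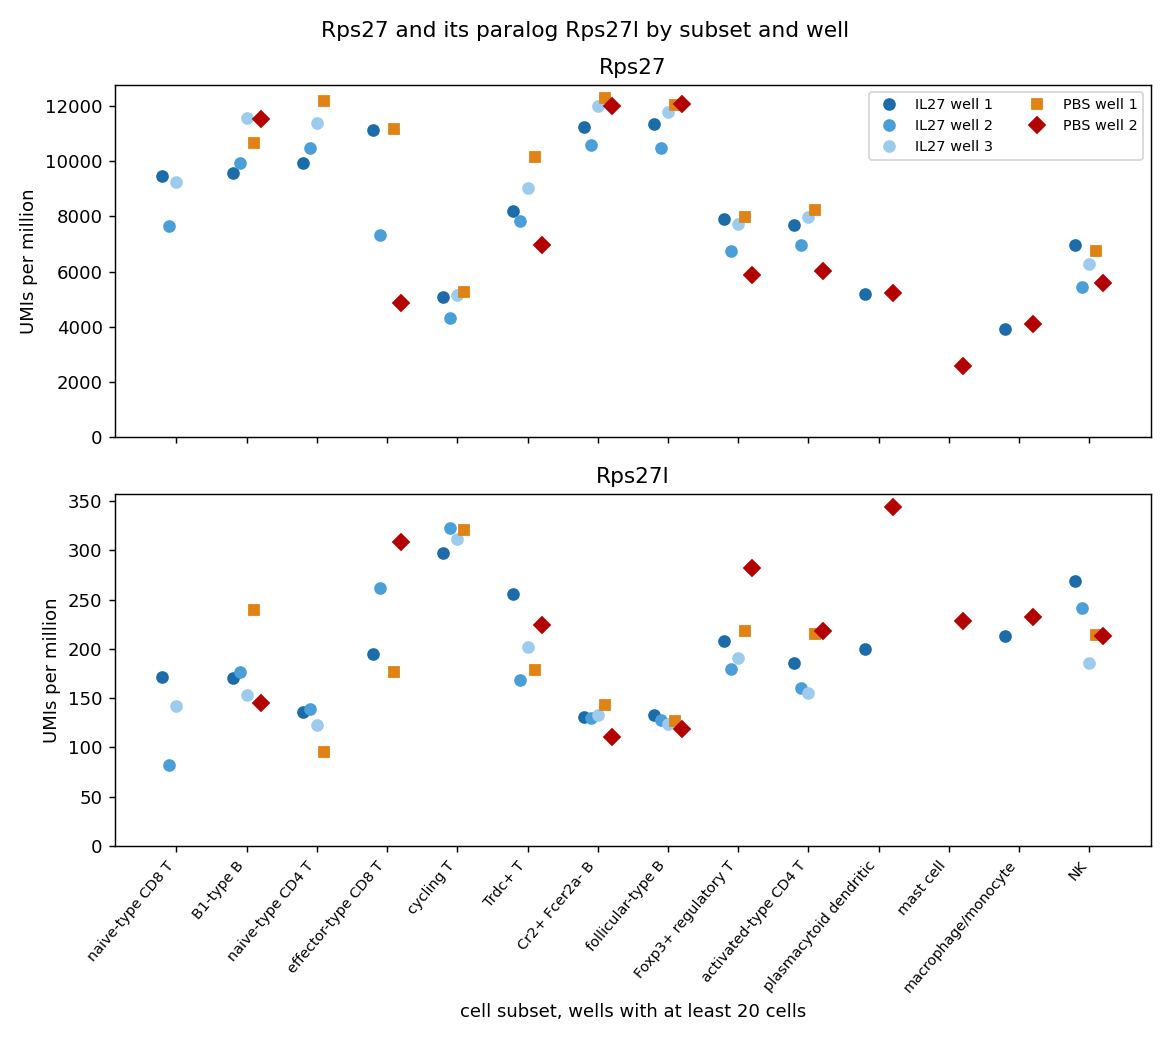
Level in CPM (vertical axes, from 0) of Rps27 (top) and of its paralog Rps27l (bottom) in each subset (horizontal axis), 1 symbol per well with at least 20 cells. Rps27 lies between 9954 and 12179 in naive-type CD4 T and follicular-type B cells and between 4326 and 5273 in cycling T cells, where Rps27l is higher.

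The other paralogs were scarce beside their parents. Rpl39 had 733202 UMIs and Rpl39l 64, of which 24 fell in described subsets, 7 in follicular-type B cells and 4 in activated-type CD4 T cells. Rpl3l, known from heart and skeletal muscle, had 25 UMIs, 17 of them in described subsets. Of these, 9 came from the 55 neutrophils (110 CPM, exact Poisson 95% interval 50.4 to 209, counting error only; the IL-27 library had 43.8, the PBS library 194) and 5 from plasmacytoid dendritic cells (5.05, 1.64 to 11.8). Its parent Rpl3 stood at 135 CPM in neutrophils (219 in IL-27, 27.8 in PBS), levels that also rest on few UMIs. In follicular-type B cells Rpl3 stood at 2407 and Rpl3l had 0 UMIs, which allows up to 3. Reads that fit both copies could have been given to either by the authors' counting. In follicular-type B cells the X-linked members Rps4x and Rpl39 showed no step between the well with Y-linked UMIs and the others. Rps4x was 6556 in PBS well 2 and 6332 to 6834 in the other wells, and Rpl39 5634 and 5508 to 5867. In effector-type CD8 T cells, where nearly all members were low in PBS well 2, the X-linked members were low there too. Rps4x was 2839 against 7308 to 8508, and Rpl39 3388 against 6517 to 8519. Rpl36a was 933 against 2765 to 3133, and Rpl10 328 against 452 to 587.

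Between the libraries the ratio of ribosomal protein shares depended on PBS well 2 in most T cell subsets. The share in IL-27 over that in PBS was 0.985 in follicular-type B cells, 0.989 in Cr2+ Fcer2a- B cells, 1.03 in NK cells, 1.06 in regulatory T cells and 1.08 in activated-type CD4 T cells. In all 5 the wells of the groups overlapped when both PBS wells were counted. No test was possible with 1 library per group. In naive-type CD4 T cells the ratio was 0.952, and the 3 IL-27 wells (30.9% to 31.0%) lay below the single PBS well with 20 cells (32.8%). In effector-type CD8 T cells it was 1.94, and without PBS well 2 it was 0.952. Without PBS well 2 the ratio was also below 1 in activated-type CD4 T cells (0.934), regulatory T cells (0.951) and NK cells (0.955). Every IL-27 well lay below PBS well 1 in activated-type CD4 T cells (mean 23.6% ± 0.250 against 25.3%) and regulatory T cells (24.0% ± 0.379 against 25.2%). The same order stood in follicular-type and Cr2+ Fcer2a- B cells. Without PBS well 1 it was 1.31 in activated-type CD4 T cells and 1.22 in regulatory T cells.

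The single members followed the same division. In effector-type CD8 T cells 75 of 77 members were higher in IL-27 by at least 0.32 on the log2 scale and 1 was lower, against 14.5% and 54.8% of the 2276 genes with at least 100 UMIs. Their median log2 ratio was 0.92. It was -0.05 over PBS well 1 alone and 1.16 over PBS well 2 alone, where all genes had -0.43. Rpl10a, for example, stood at 4031 and 3591 CPM in IL-27 wells 1 and 2, at 3692 in PBS well 1 and at 1156 in the other PBS well. The IL-27 wells and PBS well 1 were alike and PBS well 2 was low. Rps27l went the other way, with 195 and 262 CPM in the IL-27 wells against 177 (PBS well 1) and 308 (PBS well 2). Rps19 (log2 ratio 1.31) was at 6566 and 5512 in IL-27 and at 6588 and 1884 in PBS.

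In the other 6 subsets few members reached that ratio. There were 0 higher and 0 lower in follicular-type B cells (2.90% and 2.62% of 9545 genes), and 0 and 1 in Cr2+ Fcer2a- B cells (7.49% and 5.22% of 6398). Regulatory T cells (8.51% and 11.9% of 3889) and activated-type CD4 T cells (11.0% and 11.5% of 4043) each had 0 and 1, the lower one being Rps27l with a log2 ratio of -0.36 in both. NK cells had 2 and 0 (11.2% and 13.7% of 1927), the higher ones being Rpl5 (0.40) and Rpl4 (0.33), both of the large subunit. Naive-type CD4 T cells had 2 and 3 (17.6% and 9.58% of 1545). These were Rps27l (0.45) and Rps15 (0.33) above, and Rps29 (-0.46), Rps28 (-0.36) and Rpl38 (-0.34) below.

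A group of 4 members lay below the other members in IL-27 in several subsets. Rps28 and Rps29 of the small subunit and Rpl35a and Rpl38 of the large subunit were singled out after their values had been seen. In follicular-type B cells they were the lowest 4 of 77 against either PBS well, with log2 ratios of -0.36 to -0.27 against PBS well 1 and -0.25 to -0.21 against PBS well 2. The other 73 ranged from -0.12 to 0.12 and from -0.11 to 0.27. Rps28 stood at 4754, 4189 and 5624 CPM in IL-27 and at 6030 and 5800 CPM in PBS, and the groups did not overlap. Rps29 stood at 8166, 7045 and 10412 in IL-27 and at 11158 and 10358 in PBS, where IL-27 well 3 and PBS well 2 overlapped. For Rps28 and Rps29 the spread inside the IL-27 library was thus as wide as the step between libraries. Rpl35a stood at 2547, 2259 and 2658 in IL-27 and at 3209 and 2951 in PBS, without overlap. IL-27 well 2 was lowest for all 4 genes.

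The same 4 genes were the lowest 4 against PBS well 1 in naive-type CD4 T cells (-0.46 to -0.34), regulatory T cells (-0.47 to -0.28), effector-type CD8 T cells (-0.46 to -0.36) and Cr2+ Fcer2a- B cells (-0.41 to -0.31). They were among the lowest 6 in activated-type CD4 T cells (-0.42 to -0.26) and the lowest 7 in NK cells (-0.39 to -0.26). Against PBS well 2 they were below 0 in NK cells (-0.22 to -0.14) and Cr2+ Fcer2a- B cells (-0.29 to -0.17), and above 0 in activated-type CD4 T cells (0.14 to 0.23) and regulatory T cells (0.02 to 0.21) and effector-type CD8 T cells (0.76 to 1.10), where nearly all members were higher. By rank against PBS well 2, all 4 were among the lowest 5 in Cr2+ Fcer2a- B, 7 in NK and 8 in activated-type CD4 T cells. In regulatory T and effector-type CD8 T cells the highest of the 4 ranked only 23 and 33 from the bottom of 77. These comparisons share their control wells. Treatment and library cannot be told apart here.

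Members were also counted whose IL-27 wells all lay on one side of all PBS wells. In follicular-type B cells 14 members lay lower and 7 higher, against 8.15% and 13.5% of genes. The counts were 9 and 9 in Cr2+ Fcer2a- B cells (8.24% and 12.1%), 1 and 6 in activated-type CD4 T cells (9.47% and 10.9%), 1 and 5 in regulatory T cells (11.0% and 9.72%), and 5 and 8 in NK cells (11.3% and 9.76%). In effector-type CD8 T cells, with 2 wells a group, 0 lay lower and 6 higher (21.3% and 7.29%). In naive-type CD4 T cells 36 of 77 lay lower and 13 higher (24.3% and 30.8%), with a single PBS well.

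**Figure D5:**
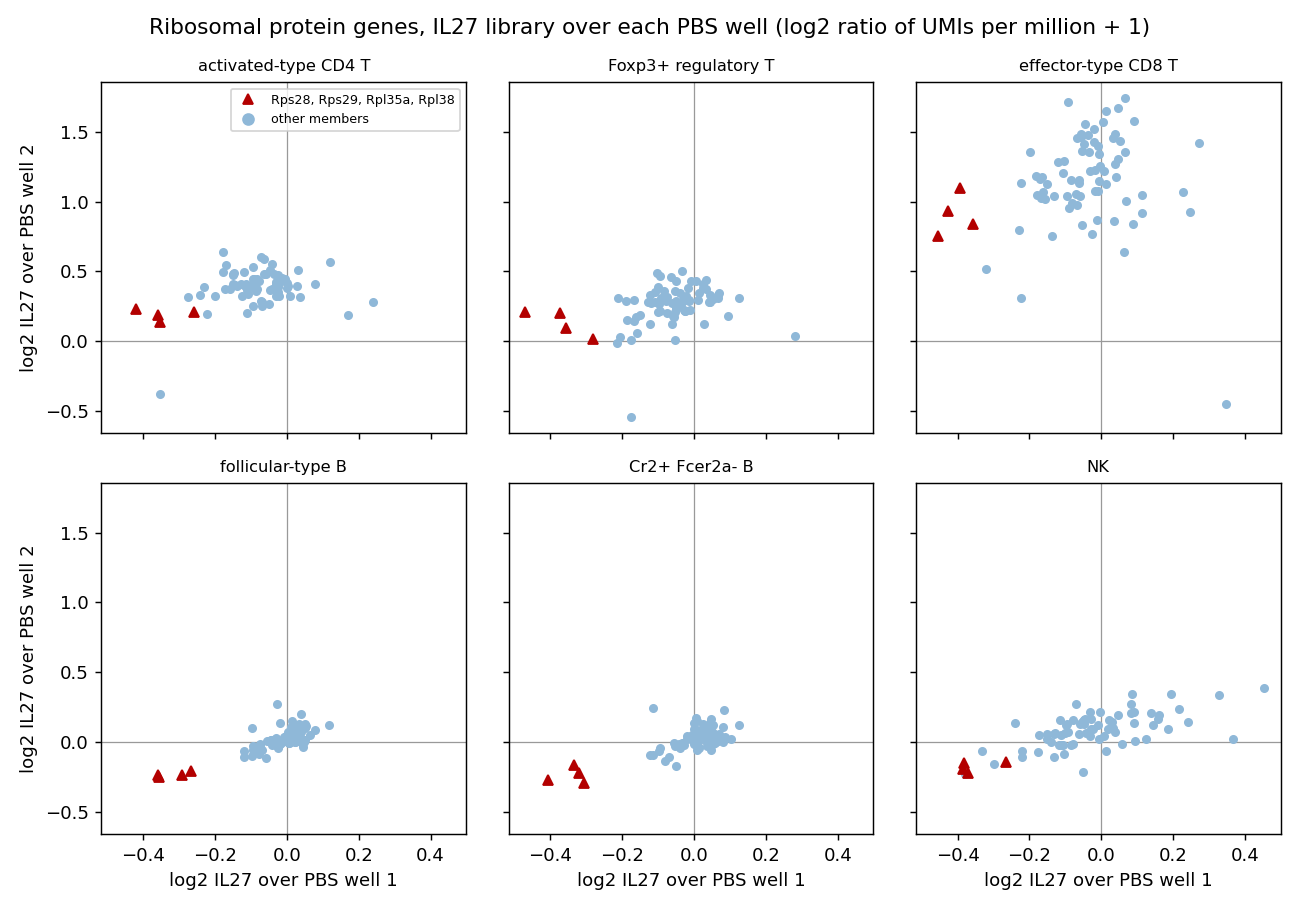
Log2 ratio of CPM (plus 1) in the IL-27 library over PBS well 1 (horizontal axes) and over PBS well 2 (vertical axes) for each ribosomal protein gene in 6 subsets, 1 point per gene. Red triangles are Rps28, Rps29, Rpl35a and Rpl38, which lie left of nearly all other members in every panel, and nearly the whole cloud of effector-type CD8 T cells lies above 0 on the vertical axis (median 1.16, with Rps27l at -0.45), while its median on the horizontal axis is -0.05.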

How the data were processed

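Live CD45+ gastric cells of the IL-27 and PBS groups were analysed from the deposited tables of raw UMI counts per gene and barcode. The authors made these counts with Cell Ranger 3.0.0 and mm10, per the submitters' processing notes, and software version 3.1.0 stands in the headers of the matrix files. Depth was 80121995 and 43501501 UMIs. Whether molecules that fit a gene and its copies were kept is not given in the sources used here.

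Cells needed at least 200 genes and at most 10% mitochondrial UMIs. No doublet caller was run. The gates leave out cells with UMIs of other lineages, and an alternative left out cells above 3 times their well's median UMIs. The members, gates and lists were chosen with earlier results of these data known. Levels are CPM of a subset. For IL-27 against PBS, log2 ratios had a pseudocount of 1 CPM and no test was made. Subsets were compared within wells of at least 20 cells per subset by edgeR 4.0.16 (quasi-likelihood test, TMM, filterByExpr, well as block, Benjamini-Hochberg over all genes tested, threshold 0.05), with DESeq2 1.42.0 as an alternative. Both fits were also run on counts simulated for the contrast of activated-type with naive-type CD4 T cells. These counts had 1 fixed dispersion and no well effect, so they do not check the spread between real wells. Genes of the gates were left out of the calls. The B1, NK and cycling T contrasts, the UMI window and ratios over each PBS well alone were added after the data had been seen. Alternatives varied cell filter, depth, denominator, members, gates, scaling, low-count filter, block and wells.

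Members named were the 5 with the most UMIs, paralogs and parents, the stalk and Rpsa, X-linked members, the 4 highest and lowest called per contrast, the 5 with the largest spread in the pool, and the 3 highest and lowest ratios per subset, plus list genes at the ends. The group of Rps28, Rps29, Rpl35a and Rpl38 was chosen after its values were seen. Coordinates and sequences are from RefSeq GRCm38.p6. Values of 1 member and of a few other genes are not reported here.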

Additional observations from a re-analysis of the deposited data

How the results depend on the processing

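Counts of members called between subsets changed most where few wells or shallow cells were left. The share of all genes called under each setting is not given, so a general loss of calls cannot be told apart. Members lower in follicular-type B than in naive-type CD4 T cells numbered 64, but 37 with DESeq2 and 20 with cells thinned to 1000 UMIs, where 5 were higher (3 in the 2000 to 5000 UMI window). Members higher in B1-type B cells numbered 74, but 37 with PBS wells only and 17 in the window, and library-size scaling called 1 lower. Members lower in NK cells numbered 69, but 2 with PBS wells only. Library-size scaling called 1 member higher in activated-type CD4 T cells and 5 lower in cycling T cells. Without the replicate block (the well) the calls were 73, 55, 74, 64 and 73 in the order CD4, follicular, B1, NK and cycling T, and no call changed by over 1.5 times. Leaving out each well in turn gave 72 to 74, 59 to 64, 70 to 75, 59 to 72 and 72 to 75. The CD8 contrast has 2 wells, so leaving out a well leaves no spread, and the window could not be run for cycling T cells.

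The naive-type minus activated-type CD4 difference of 7.38 points was 7.31 to 7.47 without each well. It was 7.08 with thinned cells, 7.94 in the window, 7.66 without antigen receptor and mitochondrial genes in the denominator or with gates raised by 1, 8.40 as a median over cells, 7.94 with 4 more ribosomal genes added, such as Rps3a1 and Fau, 5.73 without the 5 most abundant members and 7.60 without large barcodes.

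The naive-type CD4 ratio of IL-27 over PBS (0.952) was 0.960 without the cell filter, 0.941 thinned, 0.949 in the window, 0.950 with the other denominator, 0.910 as a median over cells, 0.952 with 4 genes added, 0.964 without the top 5, 0.947 with raised gates and 0.947 without large barcodes. Leaving out each well gave 0.945 to 1.04 for it, the upper value resting on 4 PBS cells. The same ranges were 0.934 to 1.31 in activated-type CD4 T, 0.951 to 1.22 in regulatory T, 0.952 to 2.28 in effector-type CD8 T, 0.955 to 1.06 in NK, 0.975 to 0.994 in follicular-type B and 0.979 to 0.996 in Cr2+ Fcer2a- B cells. Member and subset pairs at least 0.32 apart on the log2 scale numbered 86, 21 with members as the denominator, and 29 to 183 without each well. Leaving out each well, Rpl38 in naive-type CD4 T cells ranged from -0.43 to 0.13 (without PBS well 1), and in effector-type CD8 T cells Rpl10 from -0.32 (without PBS well 2) to 0.52, Rps19 from -0.092 (without PBS well 2) to 1.71 and Rps27l from -0.46 to 0.35 (without PBS well 2). With members as the denominator Rpl10 was -0.57. The causes were not tested, beyond the fewer cells or wells that a setting leaves.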
